A study of Arabidopsis thaliana with 12 samples.

Results

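AT5G39980 and AT2G36480 are 2 Arabidopsis genes for proteins that act on RNA, chosen by their probes because earlier results of these data placed both higher in the pam48 mutant than in the wild type. AT5G39980 encodes a pentatricopeptide repeat protein, and AT2G36480 a zinc-finger protein related to pre-mRNA cleavage factors. Each has 1 probe among the 3439 with deposited values, which are called all probes below. Of these, 692 report a single gene, so the 2 are among 691 genes that can be named. The wild type (WT) and the mutant, both of ecotype Columbia 0, gave 6 samples of total RNA each, numbered 1 to 6. The labels describe pam48 as altered in photosynthesis through a defect in a protein they do not name, and give no allele, tissue, age or growth condition. The numbered samples are treated below in couples of consecutive numbers (1 with 2, 3 with 4, 5 with 6). The higher level in pam48 held in all 3 couples for AT2G36480. For AT5G39980 it held in numbers 1 to 4 but not in 5 and 6, so "higher in pam48" describes AT5G39980 only in part.

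Pentatricopeptide repeat proteins form a large family in land plants. They are encoded in the nucleus, most are sent to plastids or mitochondria, and each binds particular organelle transcripts, where members of the family act in splicing, editing, end processing, stability or translation. Cleavage factors work on nuclear pre-mRNA: they belong to the machinery that cuts the transcript near its end before the poly(A) tail is added, and the choice of the cut site can set which form of an mRNA is made.

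The deposited intensities run from 0 to 100 within each sample, with the brightest spots at 100. Sample medians on that scale were between 0.0913 and 0.0999 in WT 1 to 4, 0.191 and 0.192 in WT 5 and 6, and between 0.233 and 0.305 in pam48, so WT 5 and 6 lay nearer to the mutant than the other WT samples did. All 12 samples were closest to the sample of the consecutive number and the same genotype. The labels do not say whether the numbers mark separate plants or repeat readings, so every test below measures only the spread between these columns, which may be technical. In bulk RNA, fewer cells of a type and less RNA per cell cannot be told apart. For comparisons the values were quantile normalised, raised to a floor set for each sample (its 5th percentile of positive values), and put on a log2 scale. Tests were run with limma, which fits a linear model to every probe, and p-values were adjusted over all probes, with a call at an adjusted p under 0.05.

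AT5G39980 was dim in 4 of the WT samples. On the deposited scale its intensity was 0.0408 in WT 1 and 0.0740 in WT 2. In WT 3 and WT 4 it was 0.00738 and 0.0174, the former at the floor. In WT 5 and WT 6 it was 0.440 and 0.451. The last pair of samples therefore stood far above the other 4. In pam48 the intensity was 0.610 and 0.508 in samples 1 and 2, 1.12 and 1.02 in samples 3 and 4, and 0.527 and 0.523 in samples 5 and 6. The mutant samples spanned 2.21-fold, brightest in samples 3 and 4.

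The genotypes did not overlap for AT5G39980 on the deposited scale, on which every pam48 sample lay above every WT sample for 12.6% of all probes. After quantile normalisation they did overlap, since WT 5 and 6 lay at -1.08 and -1.05 (log2) and pam48 2 at -1.24. The normalised log2 level was -2.80 ± 1.47 (SD, n = 6) in WT and -0.85 ± 0.39 (SD, n = 6) in pam48, a difference of 1.95 ± 0.55 (SE). This difference chose the gene and is given as a description. The median probe differed by -0.13 on the same scale.

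AT2G36480 was a bright transcript in both genotypes. Its deposited intensity was 0.640 and 0.634 in WT 1 and 2, 0.651 and 0.564 in WT 3 and 4, and 3.23 and 2.78 in WT 5 and 6. In pam48 it was 4.76 and 4.25 in samples 1 and 2, 5.59 and 5.28 in samples 3 and 4, and 10.4 and 9.54 in samples 5 and 6. In both genotypes the samples numbered 5 and 6 were the brightest, and within every couple both pam48 samples lay above both WT samples.

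For AT2G36480 the lowest pam48 sample lay above the highest WT sample on the deposited scale and after normalisation. Such separation was found for 2.5% of all probes after normalisation, and nothing is read from it here because the gene was chosen on this contrast. The normalised log2 level was 0.37 ± 1.04 (SD, n = 6) in WT and 2.72 ± 0.77 (SD, n = 6) in pam48, a difference of 2.35 ± 0.48 (SE). Among the 692 probes with a single gene, the difference of AT2G36480 was the third largest upward and that of AT5G39980 the fifth.

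**Figure D1:**
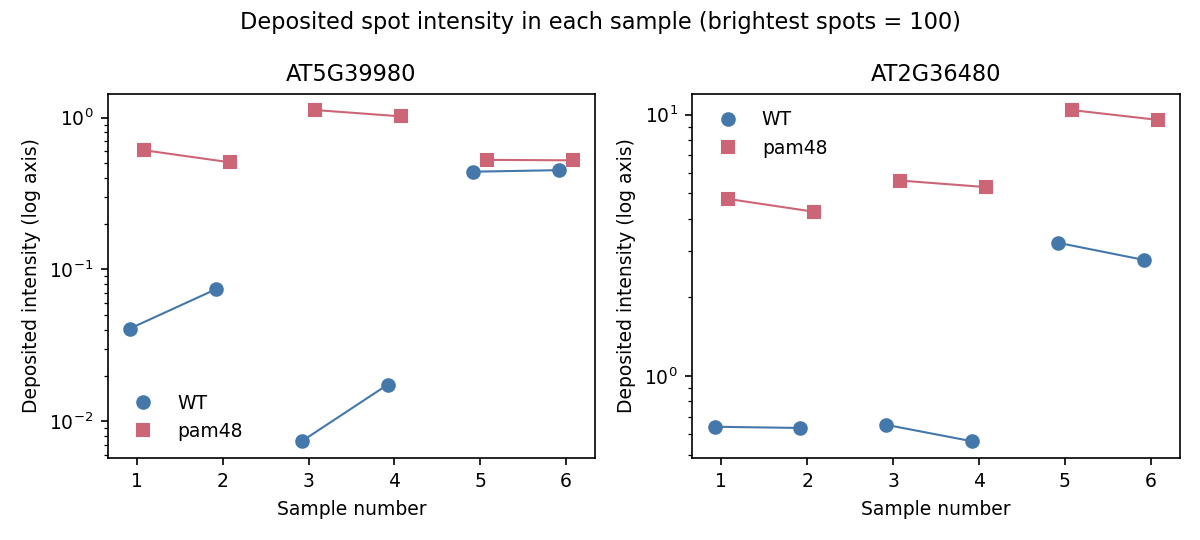
Deposited spot intensity (log axis; the brightest spots of a sample stand at 100) of AT5G39980 and AT2G36480 against sample number, with circles for WT, squares for pam48 and lines joining consecutive numbers. For AT5G39980 WT 5 and 6 reach 0.440 and 0.451, next to pam48 at 0.527 and 0.523, whereas for AT2G36480 the genotypes stay apart at every number.

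The place of a probe within its own sample does not depend on the scaling between samples. AT5G39980 stood at percentiles 26.5 and 41.7 of the 3439 probes in WT 1 and 2, and at 14.3 and 18.9 in WT 3 and 4. In WT 5 and 6 it stood at percentiles 76.3 and 76.8. In pam48 its percentile was 77.1 and 73.7 in samples 1 and 2, 86.1 and 84.5 in samples 3 and 4, and 77.0 and 76.6 in samples 5 and 6. In WT 5 and 6 the gene thus held nearly the same place as in pam48 5 and 6, with pam48 minus WT at 0.669 and -0.145 percentile points, against 71.9 points for number 3.

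AT2G36480 lay between percentiles 84.1 and 87.1 in WT 1 to 4 and at 96.7 and 96.3 in WT 5 and 6. In pam48 it lay between 97.1 and 97.8 in samples 1 to 4 and at 99.1 and 99.0 in samples 5 and 6. The mutant was higher at each of the 6 numbers, by 2.33 to 13.5 percentile points, although the top of the scale leaves little room in samples 5 and 6.

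**Figure D2:**
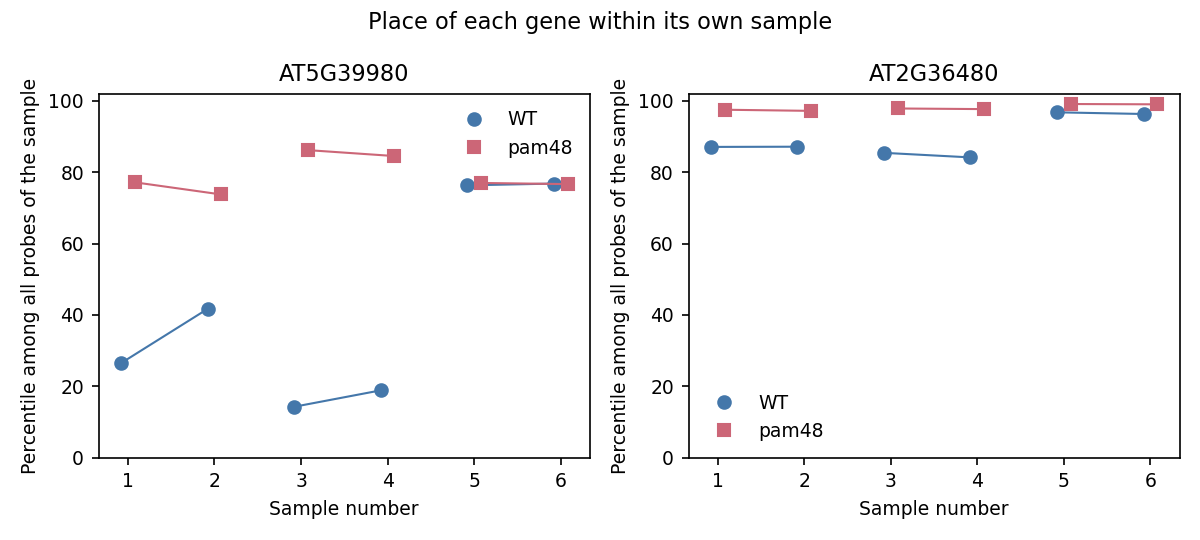
Percentile of AT5G39980 and AT2G36480 among the 3439 probes of each sample, against sample number, with circles for WT and squares for pam48. AT5G39980 moves from percentiles 14.3 to 41.7 in WT 1 to 4 up to 76.3 and 76.8 in WT 5 and 6, while AT2G36480 is higher in pam48 at every number.

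The question put to the couples was whether the higher level in pam48 had the same size in each. For AT5G39980 the normalised difference was 1.96 ± 0.25 (log2, SE, 2 samples per genotype) in numbers 1 and 2, a 3.89-fold higher level. In numbers 3 and 4 the difference was 3.89 ± 0.25, or 14.8-fold, with WT 3 at the floor. Without a floor that difference was 3.73, and with cyclic loess scaling 4.71. In numbers 5 and 6 it was 0.015 ± 0.25, or 1.01-fold, with a 95% interval from -0.55 to 0.58. Each SE by couple, here and below, comes from 1 spread pooled over the 6 genotype-by-couple groups, and not from that couple alone. That spread holds only the gaps between consecutive columns, which were 0.76 (log2) in WT 1 and 2 and 0.029 in WT 5 and 6. If those are repeat readings, the SE and interval hold no spread between plants.

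The change of AT5G39980 differed among the 3 couples (limma, F test of the genotype by couple interaction, adjusted p = 4.3e-04). This call was also made for 46.1% of all probes, so a difference among couples was common on these arrays. The change in numbers 5 and 6 was smaller than that in numbers 1 and 2 by a difference of -1.95 ± 0.35 (log2, SE) and smaller than that in numbers 3 and 4 by a difference of -3.87 ± 0.35. The changes by couple were known when the gene was chosen, so the test is not independent evidence. If consecutive columns are readings of the same RNA, each couple holds 1 sample per genotype and the interaction has no replicate check.

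For AT2G36480 the difference was 2.28 ± 0.13 (log2, SE) in numbers 1 and 2, or 4.85-fold. It was 2.78 ± 0.13 in numbers 3 and 4, or 6.85-fold, and 1.99 ± 0.13 in numbers 5 and 6, or 3.97-fold. The couples thus differed by at most 0.79 (log2), against 3.87 for AT5G39980. Here too the changes by couple were known when the gene was chosen. The F test passed (limma, adjusted p = 0.026), but not with median centring (difference 0.19, adjusted p = 0.67), nor without WT 4, WT 5 or pam48 3 (adjusted p = 0.075 to 0.081). A level at least 2-fold higher in pam48 in each of the 3 couples, as AT2G36480 had, was found for 28 probes, or 0.814% of all.

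Set among the other single-gene probes, AT5G39980 had the eleventh largest upward change of 692 in numbers 1 and 2, the third in numbers 3 and 4, and rank 332 in numbers 5 and 6. AT2G36480 ranked 5, 15 and 3 in the same order. The probes as a whole also varied less between genotypes in numbers 5 and 6, where 5.21% were at least 2-fold higher in pam48. That share was 11% in numbers 1 and 2 and 18.9% in 3 and 4. A pattern like that of AT5G39980, at least 2-fold higher in both lower-numbered couples and within 0.1 (log2) of no change in numbers 5 and 6, was shared by 45 probes, or 1.31%.

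**Figure D3:**
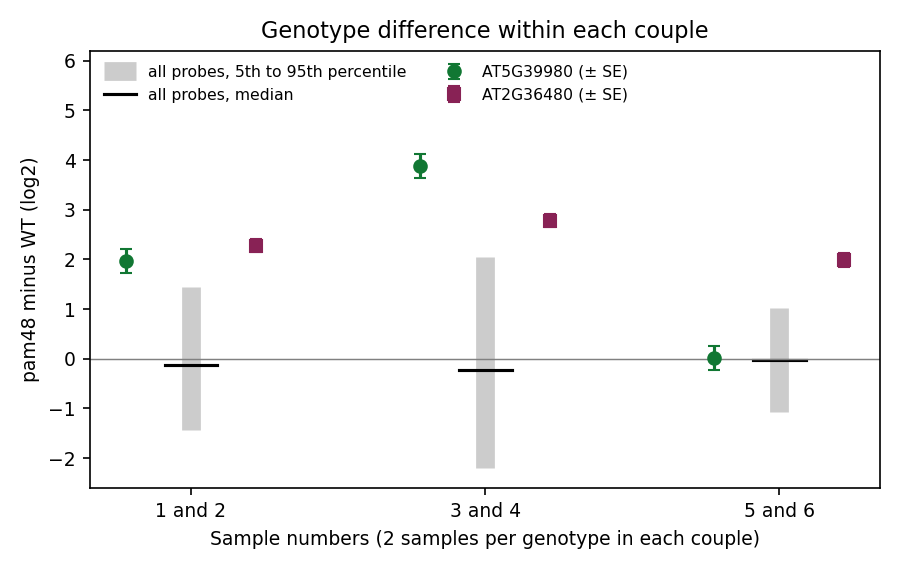
Difference between pam48 and WT (log2 of quantile normalised intensity) within each couple of consecutive numbers for AT5G39980 (circles) and AT2G36480 (squares), with SE bars, beside the 5th to 95th percentile (grey) and median (black) of all probes. AT5G39980 falls from 3.89 in numbers 3 and 4 to 0.015 in 5 and 6, and AT2G36480 stays between 1.99 and 2.78.

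Levels within each genotype are the parts of the changes by couple and are given as a description, with no test. In WT the mean normalised level of AT5G39980 was -3.09 in numbers 1 and 2, -4.25 in 3 and 4 and -1.06 in 5 and 6 (log2). In pam48 it was -1.13, -0.36 and -1.05 in the same order. The WT couples thus spanned 3.19, with WT 3 at the floor, and the pam48 couples 0.77.

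For AT2G36480 the WT level was -0.18 in numbers 1 and 2, -0.42 in 3 and 4 and 1.70 in 5 and 6 (log2). The pam48 level was 2.10 and 2.36 in the lower-numbered couples and 3.69 in the third. The mean of numbers 5 and 6 exceeded that of 1 to 4 in WT by 2.61 for AT5G39980 and by 2.0 for AT2G36480, where the median probe changed by -0.14. In pam48 the corresponding differences were -0.30 and 1.46, where the median probe changed by 0.18. Both genes were thus brighter in WT 5 and 6, and AT2G36480 alone of the 2 was also brighter in pam48 5 and 6. WT 5 and 6 are also the WT samples with the higher median intensity, and the part of that in these levels was not tested.

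Across the 12 samples the normalised levels of the 2 genes correlated with r = 0.86 (Pearson, as a description: the genotype difference that chose both genes and the likeness of consecutive columns enter it). Within genotypes r was 0.94 over the 6 WT samples and -0.23 over the 6 pam48 samples, both over 3 couples of like columns. The genes therefore shared the step in WT 5 and 6 and parted in the mutant.

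Other genes were ranked by the likeness of their pattern to each of the 2 over the 12 samples, among 575 other single-gene probes above the floor in at least 9 samples. The nearest to AT5G39980 were AT1G22700 (r = 0.97), AT4G35660 (r = 0.97), PRA1.B6, a prenylated Rab acceptor (r = 0.95), AT1G73740 (r = 0.95) and AT3G20490 (r = 0.93). All 5 had their largest change in numbers 3 and 4, from 1.87 to 5.47 (log2), and a change between -0.35 and 0.39 in numbers 5 and 6. The ranking picked genes for likeness to AT5G39980 over these samples, so this shared profile describes the selection and is no separate result. The lowest deposited intensity was 0 for AT1G22700, PRA1.B6 and AT3G20490, 0.0164 for AT4G35660 and 0.0167 for AT1G73740. The sizes of these changes thus rest in part on values at or near the floor. Ranked by deviations from the genotype means, which leave the mean difference out, the nearest were AT1G22700 (r = 0.96), AT4G35660 (r = 0.94) and APTX, an aprataxin-like gene (r = 0.94). APTX was higher in pam48 by 1.18 and 1.86 (log2) in the lower-numbered couples and lower in numbers 5 and 6, at -1.01. Its lowest deposited intensity was also 0.

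The nearest to AT2G36480 over the 12 samples were AT-HF (HISN4), an enzyme gene of histidine synthesis (r = 0.97), AT3G11150 (r = 0.95), AT4G03150 (r = 0.95), AT1G73470 (r = 0.94) and AT3G18870 (r = 0.93). Each had a higher mean in pam48 in all 3 couples, which again describes genes picked for their likeness to AT2G36480. In numbers 5 and 6 their changes ran from 0.37 (log2) for AT3G18870 to 1.16 for AT-HF. The lowest deposited intensity of AT3G11150 was 0. By deviations from the genotype means the nearest were PSAN, the photosystem I subunit N gene (r = 0.99), AT2G28540 (r = 0.98) and AT5G40470 (r = 0.98). PSAN had a mean genotype difference of only -0.14 (log2), and its r with AT2G36480 over the 12 samples was 0.28. Its deposited intensity ran only from 4.72 to 6.60. Deviations leave the mean genotype difference out by construction, so the r of 0.99 describes the shape of normalised values within genotypes, and not the size. No r of deviations is given under another scaling, and the part of the scaling in this r was not tested. AT2G36480 ranked 30 of 575 among the genes most like AT5G39980, and AT5G39980 ranked 21 among those most like AT2G36480. The r values describe 12 columns that fall into 6 closely similar couples.

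Other genes of RNA metabolism were looked for through lists of pentatricopeptide repeat genes, cleavage and polyadenylation factors, organelle RNA proteins, and nuclear splicing and RNA-binding proteins. A single-gene probe was found for 4 of 31 listed pentatricopeptide repeat genes, and for 0 of the 36, 24 and 20 loci of the other lists, so the lists give no value to set beside AT2G36480. No gene is listed for 1877 of the probes, and genes of these lists could be among them. Of the organelle RNA list, 1 locus was on a probe of several genes. The search used loci, symbols and synonyms only, so other RNA genes with a single-gene probe could be missed. Markers of senescing leaf, root, flower and green leaf, 12 loci, had no single-gene probe either, and the tissue could not be checked by them.

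OTP70, an organelle transcript processing factor, was the 1 of the 4 pentatricopeptide repeat genes that passed the test over all probes and was higher in pam48; 4.91% of all probes were called higher. The WT samples had deposited intensities of 0.178 to 0.465 and the pam48 samples of 0.619 to 0.979, without overlap, as for 12.6% of all probes on that scale. The normalised difference was 0.71 ± 0.19 (log2, SE, n = 6 per genotype), a call in limma's test at an adjusted p = 0.034, with 0.67, 1.05 and 0.41 in the couples in order of number. It did not pass in limma's test when 1 of WT 1 to 4 or pam48 1 to 4 was left out (adjusted p = 0.058 to 0.077), with median centring (0.18), with the couples averaged (0.43) and with the couples as a random block (0.26).

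OTP85, which acts in editing of a plastid transcript, gave 0.52 ± 0.31 (log2, SE; limma, adjusted p = 0.27), with 1.33 in numbers 1 and 2, 0.031 in 3 and 4 and 0.20 in 5 and 6. CRR21, named for chlororespiratory reduction, gave 0.32 ± 0.21 (adjusted p = 0.32), with -0.19, 0.87 and 0.27 in the couples. AT3G22690 gave -0.40 ± 0.30 (adjusted p = 0.38), with -0.41, -1.12 and 0.34. The median of the 4 was 0.42, beside -0.13 for all probes. On the values as deposited, raised to the floor, all 4 passed as higher in pam48, AT3G22690 among them at 1.08. But so did 48.2% of all probes, and the median change of all probes was 1.06. The change of OTP70 and CRR21 was largest in numbers 3 and 4, as in AT5G39980. That of AT3G22690 was largest in size there too, but downward, and that of OTP85 was largest in 1 and 2. Changes over all probes also spread most widely in numbers 3 and 4, from -2.21 to 2.04 (5th to 95th percentile). The spread was -1.45 to 1.44 in 1 and 2 and -1.08 to 1.03 in 5 and 6, so no likeness among these genes is read from it. The F test for a difference among couples passed for CRR21 (limma, adjusted p = 0.027) and not for OTP70 (0.063), OTP85 (0.074) or AT3G22690 (0.15), where 46.1% of all probes passed it.

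**Figure D4:**
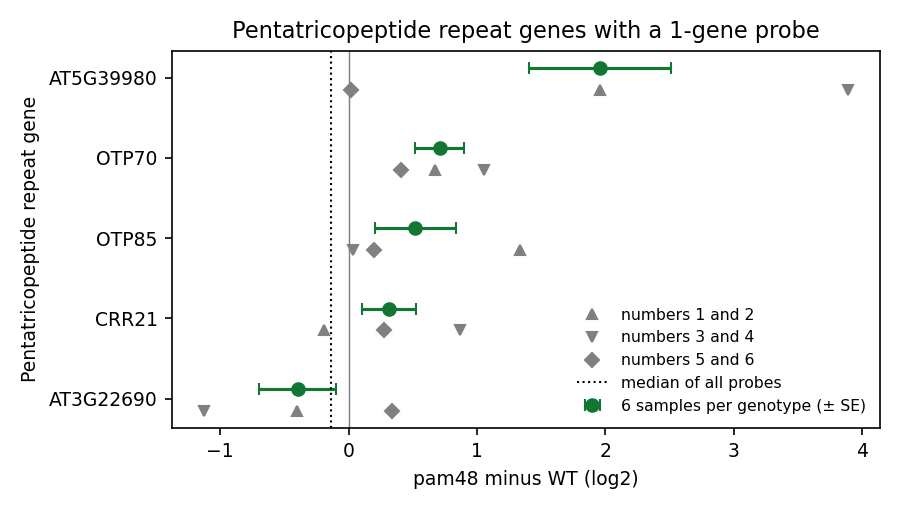
Difference between pam48 and WT (log2 of quantile normalised intensity) for AT5G39980 and the 4 listed pentatricopeptide repeat genes with a single-gene probe, over 6 samples per genotype (circles, SE bars) and within each couple (grey marks); the dotted line is the median of all probes. AT5G39980 spreads from 0.015 to 3.89 over the couples, and OTP70 from 0.41 to 1.05.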

How the data were processed

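The authors deposited 1 intensity per probe and sample on a linear scale up to 100. How RNA was labelled and spots were scanned, corrected and scaled is not given in the sources. Groups and numbers came from the sample titles. Intensities were quantile normalised, values below each sample's 5th percentile of positive values were raised to it (the floor), and log2 was taken. The floor held 8.96% to 15.6% of a sample's probes. Genotypes were compared over all 3439 probes with limma 3.58.1 in R 4.3.3 (two-sided, Benjamini-Hochberg, threshold 0.05), and couples with a fit of 6 genotype-by-couple means. Both fits were tested on simulated data. Deviations from the genotype means correlated between WT and pam48 columns of equal number (r across probes 0.188 to 0.418). This met the rule used for pairing, so fits with the number as a block were also run. Because consecutive columns were alike, these r values cannot tell pairing by number from pairing by couple. Alternatives changed the scaling, floor, filter, weights, samples and treatment of couples. The number of arrays limits the precision.

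Probes were named from GEO's platform annotation, and their symbols updated by Entrez identifier from the RefSeq gene table of TAIR10.1. A single gene was given for 692 of 3439 probes and several for 870, and 1877 were not listed. No probe of several genes lists either gene, but related transcripts can hybridise to 1 spot. Named genes were the 2 genes, the 5 most like each over 12 samples, the 3 most like each by deviations, and list members with a single-gene probe. The lists were matched by locus, symbol and synonym, and 2 listed loci were not in the table. The genes, the lists and the contrasts were chosen with earlier results of these data known.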

Additional observations from a re-analysis of the deposited data

Results flagged for a closer look

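The change of AT5G39980 between the genotypes differed among the 3 couples of consecutive numbers by a test of the difference itself (limma F test, adjusted p = 4.3e-04), with changes of 1.96, 3.89 and 0.015 (log2) in order of number. The change of AT2G36480 also differed among couples (limma F test, adjusted p = 0.026), with 2.28, 2.78 and 1.99. The same call was made for 46.1% of all probes. The changes by couple were known when the genes were chosen, and consecutive columns may be repeat readings, so neither test is independent evidence. With median centring the test of AT2G36480 did not pass (limma F test, adjusted p = 0.67). No group of 6 samples of AT5G39980, AT2G36480 or the 4 pentatricopeptide repeat genes had a single sample past Dixon's 95% critical value, but each sample lies close to its consecutive number, which hides a distant couple such as WT 5 and 6 of AT5G39980 from that test.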

How the results depend on the processing

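The upward difference of AT5G39980 and of AT2G36480 kept its sign under each alternative tried, but not its size. That of AT5G39980, 1.95 (log2), was 0.97 without numbers 3 and 4 and 3.02 without 5 and 6, and that of AT2G36480, 2.35, was 1.47 with median centring. Fits to the values as deposited used no scaling between samples but kept the floor of each sample, and the median probe was 1.06 higher. In them AT5G39980 changed by 3.31 (log2) over all samples, by 3.34 in numbers 1 and 2 and by 6.34 in 3 and 4. Its near-zero change in numbers 5 and 6 was -0.10 with median centring and -0.023 with cyclic loess. With median centring AT2G36480 gave 1.43 in numbers 3 and 4, and its difference among couples was 0.19 (limma, adjusted p = 0.67). Leaving out 1 sample gave 0.68 to 0.88 for that difference (adjusted p = 0.030 to 0.081). The replicate block changed no call for AT5G39980 or AT2G36480, with adjusted p = 0.0093 and 0.049 for their differences among couples.

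The call of 580 probes (169 higher) became 305 with cyclic loess, 1739 (1658 higher) as deposited, 377 with the common floor, 258 (90 higher) without a floor, 369 of the 3151 probes above the floor in at least 6 samples, 1248 (437 higher) with array weights and 441 (188 higher) with the replicate block. The share of calls that were higher was 29.1%, 40.3% with cyclic loess, 95.3% as deposited and 42.6% with the replicate block. Limma called 8 probes (3 higher) with the couples as a random block and 0 (0 higher) with couples averaged, where 386 had an unadjusted p under 0.05. It called 1543 (583 higher) without numbers 5 and 6, 11 (5 higher) without 3 and 4, and 10 (5 higher) without 1 and 2. Leaving out 1 sample gave 158 (without pam48 3) to 672 (without pam48 5), with 52 to 213 higher; it was 158 to 223 when the sample left out was one of those numbered 1 to 4. Of the 4 pentatricopeptide repeat genes 1 passed, and 0 passed with median centring, couples averaged, the random block, or without numbers 1 and 2 or 3 and 4. As deposited 4 passed, AT3G22690 reversed at 1.08 (log2), and 2 passed with array weights. Leaving out 1 sample gave 0 or 1. The causes were not tested. The 5 genes most like AT5G39980 had r from 0.86 to 0.99 over 6 combinations of scaling and floor, and 3 to 5 stayed among its nearest 5. For AT2G36480 r ran from 0.85 to 0.98, with 3 to 5 staying.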
